A study of Mus musculus with 6 samples.

Results

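Cytosolic ribosomal protein genes were examined in Cul5-deficient and WT CD4+ T cells polarized to Th9. Members were all genes of the deposited gene-level table whose symbol is Rpl or Rps followed by a digit, or Rplp0, Rplp1, Rplp2 or Rpsa, with Rps6k kinases and symbols holding "-ps" left out. Within that table only names were used, but it covered fewer genes than the 35896 with an assigned transcript. Rpl39l, Rpl3l, Rpl10l and Rps27rt match the rule and were not members. Whether measured levels set which genes the table holds was not tested. The rule gave 86 members among 11241 named entries. Their roles set the grouping, with 46 genes for proteins of the large (60S) subunit, 31 for proteins of the small (40S) subunit, and the paralogs Rpl22l1, Rpl36al, Rpl7l1 and Rps27l. Of the rest, 4 (Rpl37rt, Rps3a2, Rps3a3 and Rps4l) are annotated as pseudogenes in GENCODE vM21, and Rps19bp1 encodes a protein that binds a ribosomal protein and is not one itself.

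The cytosolic ribosome is built from 2 subunits, each made of ribosomal RNA and many small, mostly basic proteins. The small subunit reads the mRNA and the large subunit joins the amino acids. Nearly every ribosomal protein is present in a single copy per ribosome, apart from the acidic P stalk proteins, and many of their mRNAs start with a run of pyrimidines, the 5′ terminal oligopyrimidine (TOP) motif, through which mTOR signaling controls their translation. Activated T cells make many ribosomes as they leave quiescence, and ribosomal protein genes have left many processed pseudogenes, which are copies of the spliced mRNA scattered over the genome.

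Poly-A RNA was sequenced from 6 cultures of naive CD4+ T cells on the C57BL/6 background, 3 WT and 3 Cul5 cKO. Mice were 8 to 10 weeks old. WT cells came from littermates that carried Cul5 fl/fl without CD4-Cre, and Cul5 cKO cells from Cul5 fl/fl CD4-Cre mice, in which Cre driven by the CD4 promoter removes floxed exons 9 to 11 of Cul5, the scaffold of an E3 ubiquitin ligase, in T cells of the CD4 and CD8 lineages. All cultures were stimulated for 48 h through CD3 (antibody at 2 µg/ml) and CD28 (1 µg/ml), in medium that held IL-4 at 20 ng/ml, TGF-β at 2.5 ng/ml and a blocking antibody to IFN-γ at 10 µg/ml, so that the groups differ in Cre and in the Cul5 deletion together and share the floxed allele. The labels do not state whether the cultures of a group came from different mice, so p-values measure the spread between these samples, which may be technical.

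WT replicate 3 was the shallow library, with 3944803 estimated counts against 23111689 to 23454552 in the other 5. Cul5 stood at 64.4, 69.3 and 65.0 counts-per-million (CPM) in WT and at 10.6, 14.2 and 13.1 CPM in Cul5 cKO, a log2 fold change of -2.39 (SE 0.11, edgeR quasi-likelihood adjusted p = 0.000992). CD4+ T cell markers summed to between 1419 and 1649 CPM in every library. Within that sum Cd28 stood at 88.2, 120 and 125 CPM in WT and at 46.4, 56.3 and 45.0 CPM in Cul5 cKO. Cd3d, Cd3e and Cd3g were also lower in every Cul5 cKO sample, Lat was higher in every one, and Cd4 and Trac overlapped. Markers of B cells (6 genes) summed to 6.47 to 52.0 CPM, those of myeloid cells (6 genes) to 5.39 to 14.4 CPM, those of CD8 T cells (2 genes) to 4.30 to 11.6 CPM, those of erythroid cells (6 genes) to 0 to 2.67 CPM and those of NK cells (4 genes, 2 of them at 0 in all libraries) to 0.131 to 0.506 CPM. The highest B cell and CD8 sums were both in Cul5 cKO replicate 3, and the part of other cells in the results was not tested. In bulk RNA, fewer cells of a type and less RNA per cell cannot be told apart.

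Ribosomal protein genes showed small differences between Cul5-deficient and WT cells, and 1 of the 86, Rps7, passed the test. Counts were compared with the edgeR quasi-likelihood test over all 12925 genes with enough counts, which included all 86 members, and a gene was called at a Benjamini-Hochberg adjusted p under 0.05. Over all genes tested, 1.03% were called. Rps7 was called lower and no member was called higher. At an unadjusted p under 0.05, 6 members were higher (Rps4l, Rpl12, Rps2, Rpl36al, Rpl8 and Rps19bp1), against 10.9% of all genes tested, and Rps7 alone was lower, against 10.4%. Both shares lie under the background. All 3 Cul5 cKO samples were above all WT samples for 13 members and below them for 2 (Rps7 and Rps15a), where the background was 14.0% and 13.5% of all genes.

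Fold changes of the members were small. Their median log2 fold change (Cul5 cKO over WT) was 0.08, with a median SE of 0.07, beside a median of -0.01 over all genes tested. The fitted value was above 0 for 73 of 86, against 48.8% of all genes. The median was 0.04 without WT replicate 3 and 0.14 without WT replicate 1. Library size alone in place of TMM scaling shifted members and all genes alike, to medians of 0.04 and -0.05, with 56 members and 41.6% of all genes above 0. With an offset for transcript length 53 members were above 0. Once near-identical copies were counted with each gene, as described further on, the value was above 0 for 68 members with TMM, for 43 with library size alone, where the medians were 0.00144 for members and -0.05 for all genes, and for 39 with the length offset, where both medians were -0.01. The last 2 choices were made after the data were seen. The higher median of the members than of all genes was thus not seen with copies added and the length offset together.

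**Figure D1:**
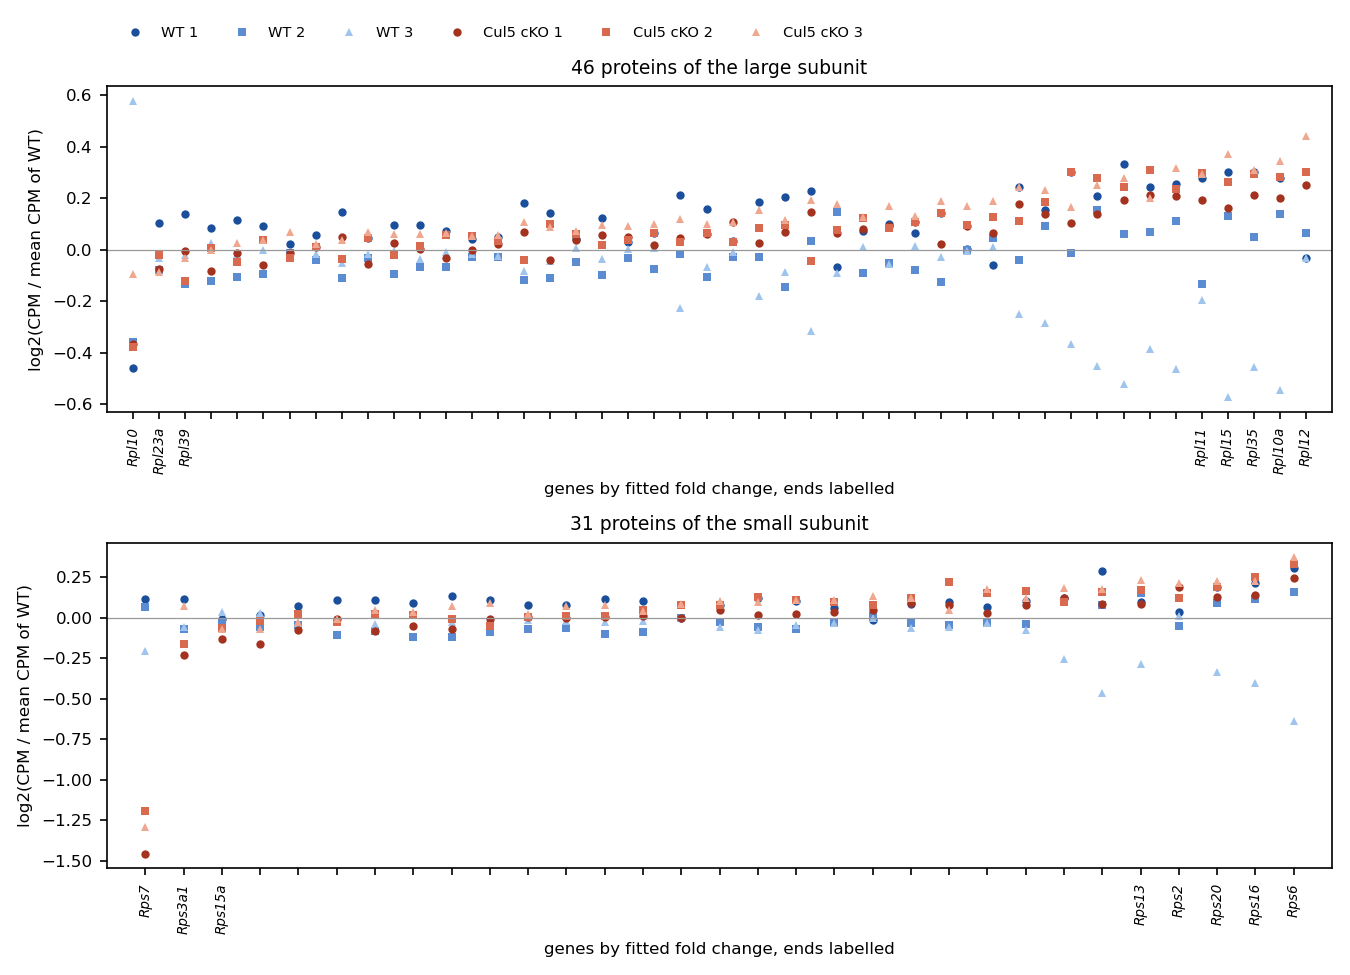
Level of each of the 77 subunit protein genes in each sample, as log2 of CPM over the mean CPM of the WT samples, with genes ordered by fitted fold change within the large (46) and small (31) subunit and the genes at either end labelled. Most genes lie within 0.2 of 0 in all samples, Rps7 lies apart in the 3 Cul5 cKO samples, and WT replicate 3 (pale blue triangles) falls below the other samples for a set of genes at the right of each panel.

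Together the 86 genes took 6.97%, 6.29% and 6.16% of the estimated counts in the WT samples and 6.52%, 6.63% and 6.65% in the Cul5 cKO samples. The groups overlapped, with WT replicate 1 highest of all. Means were 6.47% ± 0.432 (SD, n = 3) in WT and 6.60% ± 0.0701 (SD, n = 3) in Cul5 cKO, and the difference of 0.127 percentage points was smaller than the spread among WT samples. In transcripts-per-million (TPM), which corrects for the short length of these mRNAs, the members held a mean of 17.5% of all transcripts in WT and 18.2% in Cul5 cKO, again with overlapping groups. The large subunit genes took 3.47% to 3.95% of counts and the small subunit genes 2.63% to 2.96%, each with overlapping groups.

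**Figure D2:**
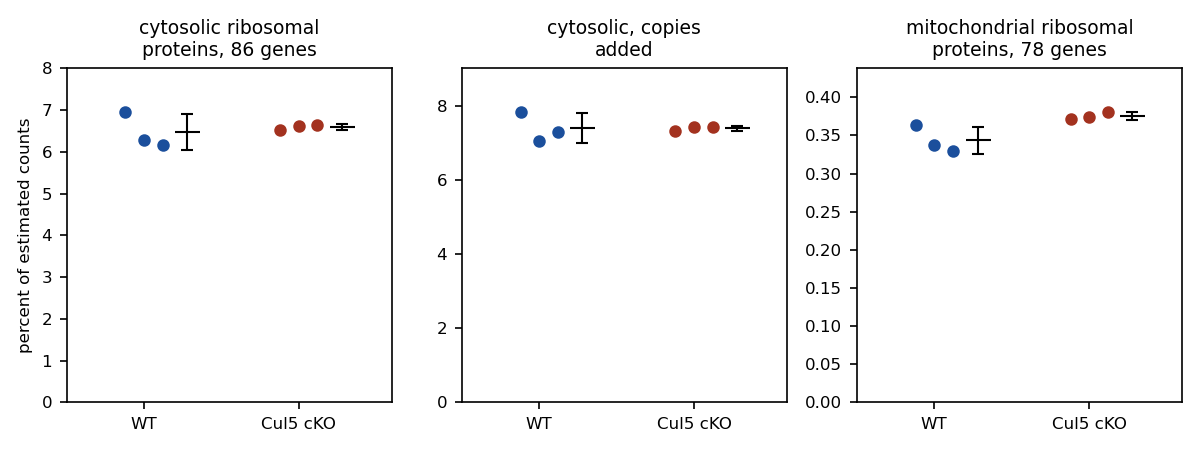
Percent of each library's estimated counts given to cytosolic ribosomal protein genes, to the same genes with their near-identical copies, and to mitochondrial ribosomal protein genes. Points are samples, and bars give the mean and SD of 3 samples; axes start at 0 and differ in scale. The cytosolic values overlap between WT and Cul5 cKO, with means of 6.47% and 6.60%, whereas the mitochondrial values do not overlap, with means of 0.343% and 0.375%.

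Rps7 encodes a protein of the small subunit that is needed for maturation of the 18S ribosomal RNA. The gene (ENSMUSG00000061477, minus strand, chr12:28630854-28635953 in GRCm38) stood at 374, 361 and 298 CPM in the WT samples and at 125, 151 and 140 CPM in the Cul5 cKO samples. Every Cul5 cKO value was below every WT value. The log2 fold change was -1.31 (SE 0.11, edgeR quasi-likelihood adjusted p = 0.0105), which leaves 40.3% of the WT mean. The call was lost without WT replicate 2 (edgeR adjusted p = 0.0643) and without Cul5 cKO replicate 3 (0.0776), at log2 fold changes of -1.28 and -1.32. In those fits 0.0151% and 0.0224% of all genes tested were called, against 1.03% with all samples. An exact two-sided permutation test of the 3 against 3 samples gave p = 0.1, the smallest it can give. Both protein-coding transcripts of Rps7 were lower. The longer, of 954 bases, had 326, 302 and 213 CPM (here of the library total, without TMM) in WT and 106, 128 and 115 in Cul5 cKO, and the shorter, of 820 bases, had 44.6, 52.1 and 76.1 in WT and 12.8, 14.6 and 13.9 in Cul5 cKO.

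Reads of Rps7 are hard to separate from those of Gm6472, a transcribed processed pseudogene on the X chromosome (minus strand, chrX:152909505-152910155 in GRCm38). Over 582 aligned bases of the Rps7 coding sequence the copy has 3 differences, T26G, G48A and G123T, where positions count from 1 at the A of the Rps7 start codon, the Rps7 base comes first and the Gm6472 base last. Of the 555 distinct stretches of 31 bases in the Rps7 coding sequence, 31 being the default word length of the kallisto program that assigned the reads, 473 (85.2%) are also in Gm6472. The first 130 coding bases hold all 3 differences and are shown, with the differing bases in capitals, since only reads over such bases or outside the shared sequence tell the genes apart.
Rps7: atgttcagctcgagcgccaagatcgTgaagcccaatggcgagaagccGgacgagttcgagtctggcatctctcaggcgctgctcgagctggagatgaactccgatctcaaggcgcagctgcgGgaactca
Gm6472: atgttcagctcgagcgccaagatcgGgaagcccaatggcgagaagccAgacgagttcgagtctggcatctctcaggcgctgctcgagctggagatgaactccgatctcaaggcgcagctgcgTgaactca

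Counts assigned to Gm6472 stood at 413, 363 and 499 CPM in WT and at 498, 548 and 540 CPM in Cul5 cKO. WT replicate 3 reached the lowest Cul5 cKO value, so the groups overlapped. Of the estimated counts of Rps7 and Gm6472 together, Gm6472 received 52.5%, 50.1% and 62.6% in WT and 79.9%, 78.4% and 79.4% in Cul5 cKO. With all its copies added, Rps7 stood at 788, 726 and 801 CPM in WT and at 624, 700 and 682 CPM in Cul5 cKO. The sum was still lower in every Cul5 cKO sample, at 86.6% of the WT mean, but its log2 fold change was -0.21 (SE 0.07) and it was not called by edgeR (adjusted p = 0.147). The group mean of Rps7 was 206 CPM lower in Cul5 cKO and that of Gm6472 was 104 CPM higher. Whether Rps7 mRNA itself fell by the size first given cannot be told from these estimates. Which bases the reads of each group carry at positions 26, 48 and 123 was not analysed here.

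**Figure D3:**
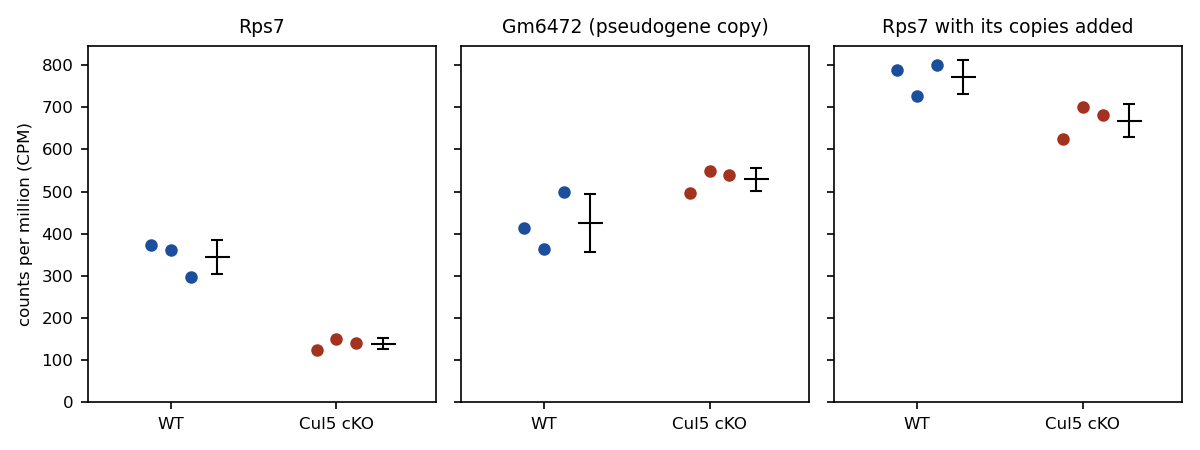
CPM of Rps7, of its processed pseudogene copy Gm6472 and of Rps7 with its copies added, in 3 WT and 3 Cul5 cKO samples; points are samples and bars the mean and SD. Rps7 falls from 298 to 374 CPM in WT to 125 to 151 CPM in Cul5 cKO, whereas the sum goes from 726 to 801 CPM to 624 to 700 CPM.

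Copies of this kind are common among the members. A search of the member transcripts against all transcripts in the files, for at least 95% identity over at least 150 bases, found copies of 80 members in 678 genes, 660 of them annotated as pseudogenes. For 56 members the copies held under 1% of the joint counts over all samples, although in WT replicate 3 they held 24.0% for Rpl14 and 23.5% for Rps13. For 24 members they held 10% or more. Rps3a2 and Rps3a3 (pseudogene copies of Rps3a1) and Rpl37rt (of Rpl37) are members whose own parent gene is the main copy, and Rpl7l1 shared a noncoding stretch with unrelated genes. The other 20 are subunit genes. Coding sequence was identical over its full length between Rpl5 and Gm15500 (894 bases), Rpl10 and Rpl10-ps3 (645 bases), Rps6 and Rps6-ps4 (750 bases), Rpl15 and Rpl15-ps3 (615 bases), and Rps16 and Rps16-ps2 (441 bases).

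Rpl5, which with Rpl11 and the 5S ribosomal RNA forms a particle that binds Mdm2, is the extreme case. Its own counts were 75.6, 87.7 and 74.4 CPM in WT and 82.8, 83.6 and 89.6 CPM in Cul5 cKO, while copies held 93.9% of the joint counts. Gm15500 alone stood at 1397, 1210 and 1245 CPM in WT and at 1251, 1260 and 1342 CPM in Cul5 cKO. Rpl12, a protein at the base of the P stalk, had 91.8% of the joint counts in copies, and 15.6% of its own counts lay on its protein-coding transcript, the rest being on transcripts annotated as retained introns or nonsense-mediated decay. Rpl10, a protein that joins the large subunit late in its assembly, had 80.2% in copies.

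Assignment to copies differed in WT replicate 3. Over the 20 subunit genes with 10% or more in copies, the median percent in copies was 59.1% in WT replicate 3 and between 33.3% and 35.8% in the other 5 samples. This replicate had the highest percent of the 6 samples for 15 of the 20 genes. For Rps6, the phosphoprotein of the small subunit downstream of mTOR signaling, the gene's own values were 1244, 1124 and 645 CPM in WT and 1190, 1267 and 1301 CPM in Cul5 cKO. WT replicate 3 stood alone, far below the other 5 samples. With copies added, Rps6 had a log2 fold change of -0.03 in place of 0.32 (edgeR adjusted p = 0.439 for the gene alone). Over the 77 subunit genes, 19 were more than 10% below every other sample in WT replicate 3, of which 17 had copies with 1% or more of the counts, whereas no other sample had more than 1 such gene. Once copies were added, 1 gene was left, Rpl37, whose main copy Rpl37rt is itself a member and was not added to it. How shallow depth bears on this was not tested.

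Rps7 was the one gene of these 20 whose percent in copies was higher in every Cul5 cKO sample. Its mean percent was 55.2% ± 6.62 (SD, n = 3) in WT and 79.3% ± 0.726 (SD, n = 3) in Cul5 cKO. For 3 genes (Rpl11, Rpl12 and Rps6) every Cul5 cKO sample was lower, and for the other 16 the groups overlapped. Without WT replicate 3, the difference for Rps7 was 27.8 percentage points and no other gene of the 20 moved by more than 6.41 points in either direction.

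**Figure D4:**
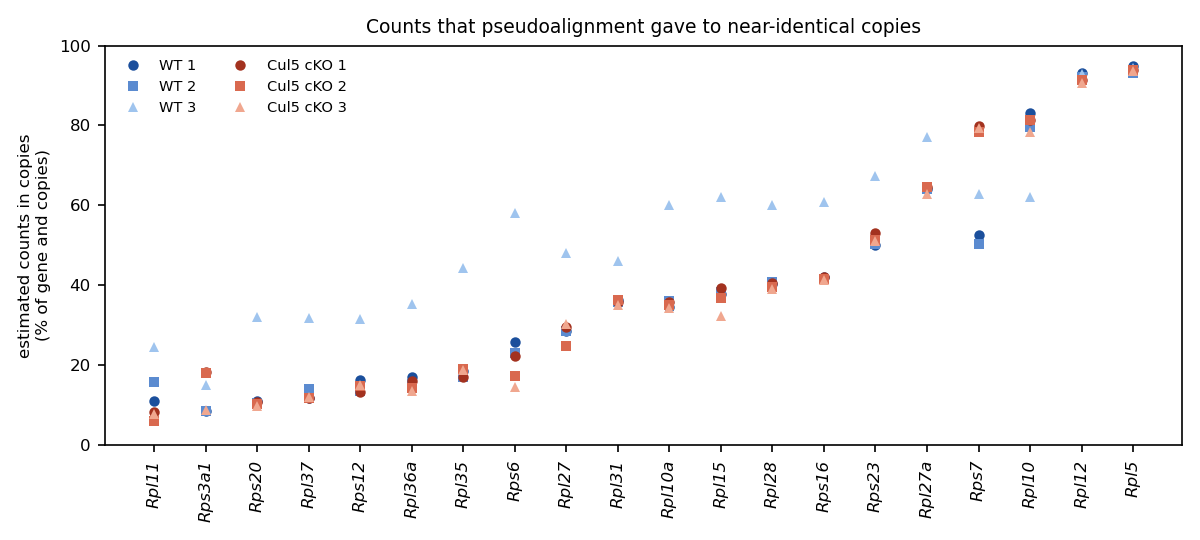
Percent of the joint estimated counts of a gene and its near-identical copies that were assigned to the copies, for the 20 subunit protein genes with 10% or more, by sample. WT replicate 3 (pale blue triangles) is the highest sample for 15 of the 20 genes, and for Rps7 the Cul5 cKO samples (78.5% to 79.9%) lie above the WT samples (50.3% to 62.7%).

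**Figure D5:**
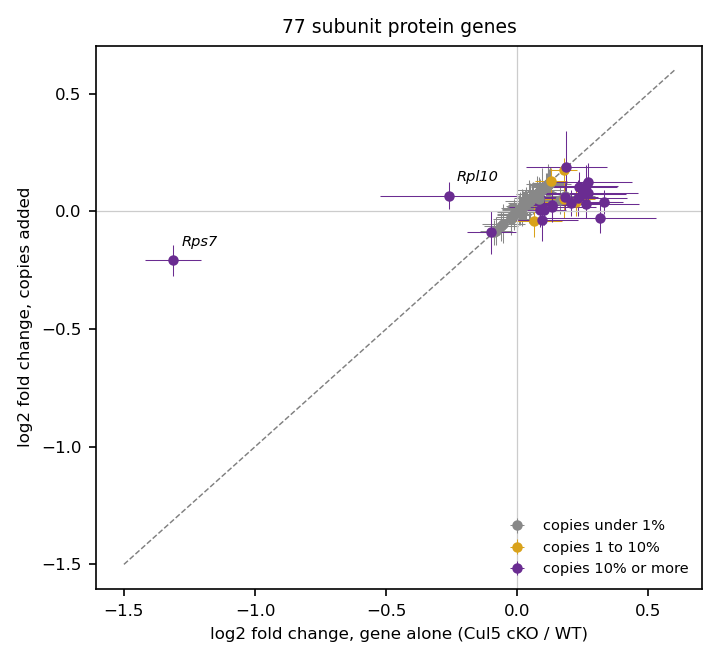
Log2 fold change (Cul5 cKO over WT) of the 77 subunit protein genes from the gene's own counts (horizontal) and with the counts of near-identical copies added (vertical), with standard errors as bars and the line of equality dashed. Of the 52 genes with under 1% of counts in copies, 49 move by less than 0.02 (log2) and Rpl14 moves from 0.18 to 0.07, while Rps7 moves from -1.31 to -0.21 and Rpl10 from -0.26 to 0.07.

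Adding the copies narrowed the differences in both subunits. With copies added no member was called, where 1.16% of 12842 genes were; at an unadjusted p under 0.05 edgeR then had 6 members, against 21.4% of all genes, of which Rps7 was lower and the other 5 higher. The median log2 fold change was 0.05 over all members, 0.05 over the large subunit and 0.03 over the small subunit, and 68 of 86 values were above 0, against 48.9% of all genes. Without copies the medians had been 0.08 for both subunits. Among the 52 subunit genes whose copies held under 1% of the counts, the median was 0.04 (range -0.09 to 0.18), with 1 gene (Rpl8) at an unadjusted p under 0.05 and none called. With copies added their median was again 0.04 (range -0.09 to 0.12), and Rpl14 moved from 0.18 to 0.07 and Rps13 from 0.16 to 0.05. Among the 20 with 10% or more it was 0.20. The share of the library held by members and copies was 7.85%, 7.06% and 7.30% in WT and 7.33%, 7.44% and 7.44% in Cul5 cKO, with means of 7.40% in both groups.

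Large subunit genes, 46 in number, had fitted log2 fold changes from -0.26 (Rpl10) to 0.33 (Rpl12), and none was called. Rpl12 stood at 87.7, 93.9 and 87.8 CPM in WT and at 107, 111 and 122 CPM in Cul5 cKO. All Cul5 cKO values were higher, and the log2 fold change of 0.33 (SE 0.07) missed the threshold in edgeR (adjusted p = 0.0871). It passed in 5 of 26 alternatives, among them DESeq2 (adjusted p = 0.0219). With copies added it was 0.04, with overlapping groups. Rpl8, a protein close to the peptidyl transferase center, has no counts in copies and stood at 1429, 1424 and 1421 CPM in WT and at 1518, 1523 and 1602 CPM in Cul5 cKO. Its groups did not overlap, at a log2 fold change of 0.12 (SE 0.05, edgeR adjusted p = 0.224). Rpl10 had 256, 275 and 527 CPM in WT and 273, 272 and 331 CPM in Cul5 cKO, so that its fitted value of -0.26 rested on WT replicate 3.

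The P stalk recruits translation factors to the large subunit through Rplp0 and pairs of Rplp1 and Rplp2, with Rpl12 at its base. All 4 genes had values above 0, as did 73 of 86 members and 48.8% of all genes, and none was called. Rplp0 stood at 3664, 3509 and 3597 CPM in WT and at 3711, 3681 and 3831 CPM in Cul5 cKO (log2 fold change 0.06, SE 0.05), with groups that did not overlap. Over the 26 alternatives the Rplp0 value ran from -0.06 to 0.08. Rplp1 had 1534, 1469 and 1486 CPM in WT and 1614, 1528 and 1611 CPM in Cul5 cKO (0.08, SE 0.05). Rplp2 had 504, 543 and 529 CPM in WT and 549, 574 and 600 CPM in Cul5 cKO (0.13, SE 0.06). The differences were 10% or less of the WT level for these 3 genes and did not pass the test.

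Rpl11, the partner of Rpl5 in the 5S particle, had 642, 483 and 462 CPM in WT and 605, 651 and 649 CPM in Cul5 cKO. WT replicate 1 lay among the Cul5 cKO samples. The log2 fold change was 0.26 (SE 0.12, edgeR adjusted p = 0.277), and 0.11 with copies added. In replicates 2 and 3 alone, where 8.83% of all genes were called, Rpl11 was called higher (log2 fold change 0.46, edgeR adjusted p = 0.0165), as were Rpl12 and Rpl36al. In that comparison of 2 against 2 samples 29 members were higher at an unadjusted p under 0.05, against 16.2% of all genes, and the median of the members was 0.14. With copies added as well, an alternative chosen after seeing the data, 10.9% of all genes were called, the median of the members was 0.11, and Rpl11, Rpl35, Rpl36al and Rpl41 were called higher and Rps7 was not called.

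Small subunit genes, 31 in number, ranged from -1.31 (Rps7) to 0.32 (Rps6) in fitted log2 fold change, with 24 above 0. Apart from Rps7 none was called. Rps2, a protein at the mRNA entry tunnel, stood at 2847, 2687 and 2809 CPM in WT and at 3170, 3031 and 3234 CPM in Cul5 cKO. These values did not overlap, and the log2 fold change of 0.18 (SE 0.05) was also 0.18 with copies added, without passing the threshold in edgeR (adjusted p = 0.131). Rps15a had 483, 475 and 499 CPM in WT and 444, 465 and 463 CPM in Cul5 cKO (-0.09, SE 0.05, edgeR adjusted p = 0.391). Rps3a1 had 1043, 916 and 922 CPM in WT and 819, 860 and 1011 CPM in Cul5 cKO (-0.10, SE 0.09), with overlapping groups. Its pseudogene Rps3a2 stood at 87.0, 77.4 and 162 CPM in WT and at 168, 171 and 87.2 CPM in Cul5 cKO, with overlapping groups. So did Rpl37rt, the pseudogene copy of Rpl37, at 49.4, 47.4 and 107 CPM in WT and at 42.1, 48.3 and 45.5 CPM in Cul5 cKO, and Rps3a3, which did not pass 1.95 CPM in any sample. Rps19bp1 stood at 18.7, 20.2 and 22.8 CPM in WT and at 21.6, 25.5 and 27.6 CPM in Cul5 cKO (log2 fold change 0.29, SE 0.12, edgeR adjusted p = 0.232).

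Of 19 ribosomal protein genes in which loss-of-function mutations are known in Diamond-Blackfan anemia, an inherited red cell aplasia, Rps7 alone was called, against 1.03% of all genes tested. With copies added Rps7 was not called (edgeR adjusted p = 0.147). The median log2 fold change of the 19 was 0.06, against 0.08 for all members and -0.01 for all genes tested. Values were above 0 for 16 of the 19, beside 73 of 86 members and 48.8% of all genes.

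Levels differed widely among the members. In TPM, which is set per transcript length, the highest means over the 6 samples were those of Rplp1 (7030), Rpl41 (6002), Rpsa (5813), Rps2 (5695) and Rpl13a (5652). Rpl41 encodes the smallest of these proteins, and Rpsa the laminin receptor precursor of the small subunit. Between groups these levels overlapped or were close, for example 6771 ± 726 TPM (SD, n = 3) in WT and 7288 ± 214 TPM (SD, n = 3) in Cul5 cKO for Rplp1, and 6088 ± 795 TPM and 5538 ± 23.5 TPM for Rpsa. Of the counts of Rpsa, 43.4% lay on protein-coding transcripts. Over the 26 alternatives the log2 fold change ran from -0.13 to 1.23 for Rpsa and from -0.04 to 0.46 for Rpl13a, and neither was called in any. The 5 lowest were Rps4l (2.94 TPM), Rps3a3 (3.04 TPM), Rps19bp1 (51.6 TPM), Rpl7l1 (110 TPM) and Rpl5 (111 TPM). Over the 77 subunit genes the mean TPM spanned 63.6-fold, from Rpl5 to Rplp1. With the TPM of copies added Rpl5 reached 2294 TPM, and the range ran from Rpl39 (637 TPM) to Rplp1 (7033 TPM). The median gene stood at 1981 TPM alone and at 2319 TPM with copies.

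Paralogs can replace their canonical partner in a ribosome. Rpl22l1 had 10.98%, 11.8% and 13.3% of the TPM of Rpl22 in WT and 11.9%, 13.4% and 13.3% in Cul5 cKO. Rps27l had 6.35%, 5.09% and 6.39% of the TPM of Rps27 in WT and 7.01%, 5.57% and 6.21% in Cul5 cKO. Both ratios overlapped between groups, with exact permutation p = 0.3 for Rpl22l1 and p = 0.7 for Rps27l. Rpl7l1 had 4.97% to 5.67% of the TPM of Rpl7 in WT and 5.64% to 5.82% in Cul5 cKO (exact permutation p = 0.2). Rps4l had 0.0760%, 0.0743% and 0.0648% of the TPM of Rps4x in WT and 0.143%, 0.132% and 0.154% in Cul5 cKO, without overlap (exact permutation p = 0.1, the smallest that 3 against 3 samples can give). No adjusted p over the 9 pairs could pass the threshold in this design, and the lowest was 0.54. The canonical partners Rpl3, Rpl7, Rpl10, Rpl22, Rpl36a, Rpl39, Rps4x and Rps27 had fitted log2 fold changes from -0.26 (Rpl10) to 0.10 (Rpl36a), and none was called.

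Rpl36al, an intronless copy of Rpl36a that is itself translated, was the paralog with the highest ratio. It stood at 139, 117 and 113 CPM in WT and at 139, 148 and 156 CPM in Cul5 cKO. The lowest Cul5 cKO value lay just above the highest WT value, and the log2 fold change was 0.26 (SE 0.09, edgeR adjusted p = 0.177). Relative to Rpl36a its TPM was 47.6%, 45.8% and 59.7% in WT and 50.8%, 61.5% and 54.8% in Cul5 cKO, with overlapping groups. These ratios use the TPM of Rpl36a without its copies. Copies held 35.4% of its joint counts in WT replicate 3 and 13.6% to 17.0% in the other samples. Rps4l stood at 1.20, 1.08 and 0.759 CPM in WT and at 2.04, 2.02 and 2.27 CPM in Cul5 cKO (log2 fold change 0.98, SE 0.27, edgeR adjusted p = 0.114). These are at most 51.0 estimated counts, and 3 in WT replicate 3. At this depth Rpl39l, Rpl3l and Rps27rt were at or under 2.49, 0.286 and 4.16 TPM in any sample, and Rpl10l had no counts.

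Fau and Rack1 encode ribosomal proteins whose symbols the rule does not match. Fau, which is made as a fusion with a ubiquitin-like protein, stood at 518, 465 and 507 CPM in WT and at 507, 524 and 541 CPM in Cul5 cKO (log2 fold change 0.08). Rack1, the scaffold on the head of the small subunit, stood at 1758, 1754 and 1710 CPM in WT and at 1824, 1832 and 1875 CPM in Cul5 cKO (0.08). Groups overlapped for Fau and not for Rack1, and neither was called.

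Other genes tied to translation were compared as lists. Of 24 genes known for TOP mRNAs besides ribosomal proteins, such as elongation factors, not all encode translation factors. None of the 24 was called, 3 were higher at an unadjusted p under 0.05, against 10.9% of all genes, and the median log2 fold change was 0.08. Another list held 19 genes for initiation, elongation and termination factors and for regulators of these. At an unadjusted p under 0.05, 13 of the 19 were higher and none lower, against 10.9% and 10.4% of all genes. Their median was 0.20 beside -0.01 for all genes, and 1 was called, against 1.03%. The list was chosen with earlier results known, and its difference from other genes was not tested. The called gene was Eif4ebp1, a regulator whose product binds Eif4e and blocks cap-dependent initiation until mTOR phosphorylates it. Eif4ebp1 stood at 42.2, 38.9 and 38.7 CPM in WT and at 53.8, 59.3 and 61.8 CPM in Cul5 cKO. Every Cul5 cKO value was higher, with a log2 fold change of 0.54 (SE 0.08, edgeR adjusted p = 0.0306). The call was lost without WT replicate 2 (edgeR adjusted p = 0.153), WT replicate 3 (0.161), Cul5 cKO replicate 2 (0.114) or Cul5 cKO replicate 3 (0.160), at log2 fold changes of 0.50 to 0.53. In those fits 0.0151% to 0.338% of all genes tested were called, against 1.03% with all samples.

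Mitochondrial ribosomal protein genes, 78 in number, encode the proteins of the ribosome inside mitochondria, which translates the few mRNAs of the mitochondrial genome. None was called. At an unadjusted p under 0.05, 25 of them were higher and none lower, against 10.9% and 10.4% of all genes, 33 lay higher in all Cul5 cKO samples, against 14.0%, and their median log2 fold change was 0.16, beside 0.08 for the cytosolic members. They took 0.363%, 0.337% and 0.330% of the counts in WT and 0.371%, 0.373% and 0.381% in Cul5 cKO. The groups did not overlap, at the smallest p (0.1) that an exact permutation test of 3 against 3 can give. Genes of the mitochondrial genome took 4.72%, 4.03% and 4.42% of the counts in WT and 3.93%, 3.94% and 3.97% in Cul5 cKO, lower in every Cul5 cKO sample (exact permutation p = 0.1). Fold changes of the mitochondrial set are given for the main fit alone, not with library size alone or the length offset. Whether the cytosolic and mitochondrial sets differ from each other was not tested.

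Certain pyrimidine strings at the transcription start were looked for as a feature the rule did not use. Promoters from RefSeq (GRCm38.p6) were matched to 63 of the 86 members, 61 of them genes for ribosomal proteins of the subunit and paralog groups. The 30 bases around the annotated start, 15 before and 15 after, were searched on the gene's own strand for CTTTC, for its relative CTCTT and for the shifted form CCTTT, which can overlap each other. They held at least 1 of these in 22 of the 61 members (36.1%), in 733 of 9707 other genes tested (7.55%) and in 7 of 69 mitochondrial ribosomal protein genes (10.1%). Shown with the match in capitals are 4 members with a match, and then Rps7, whose window holds none of the 3. Most of the 61 members likewise had no match, and the Rps7 window does hold other runs of pyrimidines.
Rpl12 (plus strand, chr2:32961697-32961726): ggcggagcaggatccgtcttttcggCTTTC
Rpl13a (minus strand, chr7:45128731-45128760): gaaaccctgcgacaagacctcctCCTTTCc
Rplp2 (plus strand, chr7:141447636-141447665): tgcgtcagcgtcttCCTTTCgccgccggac
Rps6 (minus strand, chr4:86857353-86857382): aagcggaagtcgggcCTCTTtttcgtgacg
Rps7 (minus strand, chr12:28635939-28635968): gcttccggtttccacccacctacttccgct
A match describes these letters in this window and says nothing of where transcription started in these cells.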

How the data were processed

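Single-end reads of 50 bp were pseudoaligned by the authors to Ensembl GRCm38 transcripts with kallisto 0.46.2, and the deposited files give estimated counts (reads shared among transcripts by likelihood, not normalized) and TPM for 119414 transcripts per sample. A table per gene, deposited as log2 CPM after TMM scaling by the authors with edgeR 3.34.0, served here for the member names and as an alternative. Its fold change and p-value columns, the authors' own comparison, were not used. Transcript lengths were deposited beside the counts.

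Estimated counts were summed per gene with GENCODE vM21 (116640 transcripts assigned), rounded, filtered with filterByExpr, scaled by TMM and tested with the quasi-likelihood test of edgeR 4.0.16 in R 4.3.3, genotype being the only term. P-values were Benjamini-Hochberg adjusted over all genes tested. limma 3.58.1 and DESeq2 1.42.0 served as alternatives. A kallisto estimate splits reads between near-identical transcripts, so copies were found with blastn 2.17.0 and, in an alternative, their counts were added to the gene, each copy to its best match. Copies that are members themselves were kept apart. Exact permutation tests used scipy 1.17.1. Total counts ran from 3944803 to 23454552 per sample, and 3 counts, taken as the floor, equal 0.760 CPM in the shallowest library.

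Members and gene lists were chosen with earlier results of these data known. The genes named are Cul5, members called, those with the 5 highest and lowest TPM, the 5 largest fold changes each way at 1 CPM or more, the 5 with the largest share of counts in copies, paralog pairs, P stalk and 5S particle genes, Fau, Rack1 and called genes of the other lists. Rpl8, Rpl35, Rpl37 and the genes of copies were named after their values were seen. Some genes are not reported here.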

Additional observations from a re-analysis of the deposited data

How the results depend on the processing

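The main count was 1 member called, 7 at an unadjusted p under 0.05 and a median log2 fold change of 0.08. Calls numbered 2 with DESeq2 (Rps7 and Rpl12), where 5.36% of all genes were called, 2 with the replicate block (Rps7, and Rpl12 at an adjusted p of 0.0436; 6.56%), 3 with replicate 1 as a term (13.1%), 4 in replicates 2 and 3 alone (8.83%), 5 with voom quality weights (9.74%) and 0 with copies added (1.16%). Unadjusted counts were 3 with counts scaled from TPM (15.7% of all genes), 3 with limma on the gene-level table (16.2%) and 3 after thinning (11.4%). They were 4 on log2(TPM + 1) (14.8%) and on log2(TPM + 0.1) (14.9%), 30 in replicates 2 and 3 alone (31.2%) and 39 with voom quality weights (30.7%). Leaving out 1 replicate gave 0 to 2 calls, 4 to 29 unadjusted, and medians of 0.04 to 0.14. Of all genes, 0.0151% to 2.39% were then called and 12.4% to 24.8% had an unadjusted p under 0.05. Rps7 lost its call without WT replicate 2 (edgeR adjusted p = 0.0643) or Cul5 cKO replicate 3 (0.0776). The 29 followed the loss of WT replicate 1, where the share of all genes was 24.8%. Among 26 alternatives Rps7 was called in 23, at log2 fold changes of -1.41 to -0.21 and adjusted p of 4.19e-26 to 0.147; Cul5 was called in 26 and Eif4ebp1 in 17 (adjusted p up to 0.193). The difference in library share was 0.127 points for counts, 0.628 for TPM and -0.03 to 0.373 without 1 replicate.

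Combinations added after the data were seen gave, with copies added, 0 calls and 4 unadjusted without WT replicate 3, 4 calls and 31 in replicates 2 and 3 alone, 0 calls and a median of -0.0102 with the length offset, and 0 calls, 4 unadjusted and a median of 0.00144 with library size alone. Of all genes, 0.00763%, 10.9%, 1.22% and 1.17% were called, in that order. An unadjusted p under 0.05 was found for 13.3%, 31.7%, 21.6% and 20.9%. The causes were not tested. Same-numbered samples paired in part, with deviations from the group means that correlated at 0.370, 0.206 and 0.0245. WT replicate 1 correlated at -0.266 and -0.187 with Cul5 cKO replicates 2 and 3. WT replicate 3 correlated best with Cul5 cKO replicate 2 (0.0914). The replicate block left 7 members at an unadjusted p under 0.05, against 27.4% of all genes. It raised calls over all genes from 133 to 848, and replicate 1 as a term raised them to 1688. Of 930 values of single named genes under the 26 alternatives, 860 moved by less than the replicate spread without change of call, and none that was called changed sign. Uncalled genes did change sign, 4 of 36 with library size alone, 4 of 36 with copies added and 5 of 36 on log2(TPM + 1). With DESeq2 and with the replicate block none did, and with copies added and the length offset together 10 of 36 did. Depth limits members near the floor, Rps4l and Rps3a3.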

Other observations

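The stretch of chromosome 12 around Rps7 is described because Rps7 was the one member called. Here 50 other tested genes start within 10 Mb on either side, of which 3 were called by edgeR (6%, against 1.03% of all genes tested) and 16 had an unadjusted p under 0.05 (32%, against 21.3%). Those called were Zfp125 (log2 fold change -2.69, adjusted p = 0.0159), Rrm2 (0.43, adjusted p = 0.0389) and Tspan13 (-0.85, adjusted p = 0.0410), so that both directions occurred. The window was chosen after the values were seen, and no test was made of it.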
